A study of Mus musculus with 8 samples.

Results

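The genes described here are 10 natural killer (NK) receptor and cytotoxic genes, measured in CD4+ T cells of the mouse meninges, the membranes around the brain. They were chosen by name, with earlier results of these data known: Klrk1, Klrc1, Klrd1, Klrb1c, Klre1, Fcer1g, Zbtb16, Nkg7, Gzma and Gzmk. All 10 symbols were found among the 55487 gene IDs of the deposited tables. The study sorted meningeal cells as CD45+ CD3+ CD4+ and read RNA, T-cell receptor (TCR) chains and hashtag antibodies from the same single cells. Replicate 1 came from Foxp3-GFP mice, which carry a green fluorescent reporter of Foxp3, and replicate 2 from B6.WT mice; the labels give treatment as N/A for both. The genotype therefore changes with the replicate, so the 2 cannot be told apart, and the number of animals per meningeal library is not given in the sources used here. The series also holds hippocampal CD45- Thy1- cells of Foxp3-DTR- and Foxp3-DTR+ mice; both genotypes received diphtheria toxin, and each library pools 2 animals.

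NK receptors of the Klr family are lectin-like surface proteins that raise or restrain killing and cytokine release. They are best known from NK cells but are also carried by invariant natural killer T (iNKT) cells. These are T cells that recognise lipids on CD1d and share 1 TCR alpha chain (TRA), in the mouse made of the V gene TRAV11 and the joining gene TRAJ18. Zbtb16, the transcription factor PLZF, is needed for their effector programme. Granzymes are serine proteases released from cytotoxic granules.

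Cells with a productive TRAV11-TRAJ18 chain are called iNKT TRA cells below, a name for their receptor alone. They numbered 112 in replicate 1 and 390 in replicate 2. The other TCR cells, with a productive TRA chain of another kind, numbered 1070 and 1450. The unique molecular identifiers (UMIs) of all cells of a group were summed within a replicate and scaled to counts per 1e6 UMIs of that sum (CPM). The iNKT TRA sums held 469783 and 897688 UMIs, at medians of 3562.5 and 1908.5 UMIs per cell. The other TCR sums held 3727872 and 2776908 UMIs, at medians of 3001 and 1692. A total of 4 barcode sequences occurred in both replicates.

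The alpha chains that defined these cells were nearly uniform, and the 4 commonest CDR3 sequences, the part of the chain that meets antigen, are shown because they are what separates the groups. The capital marks position 12, counted from 1 at the 5′ end, the last base of codon 4.
GGC form: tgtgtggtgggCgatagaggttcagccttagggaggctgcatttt
GGG form: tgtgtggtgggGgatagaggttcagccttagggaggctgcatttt
GGA form: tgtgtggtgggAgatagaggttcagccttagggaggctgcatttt
GGT form: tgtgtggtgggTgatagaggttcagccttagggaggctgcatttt
The other 3 differ from the first by C12G, C12A and C12T, and all encode the same 15 residues. The GGC form was found in 39 cells of replicate 1 and 145 of replicate 2, the GGG form in 30 and 114, the GGA form in 21 and 66, and the GGT form in 10 and 45. Together they made up 89.3% and 94.9% of iNKT TRA cells, and every iNKT TRA cell had a CDR3 of 45 bases. The beta chain was not used to choose the cells. Among iNKT TRA cells with 1 beta chain, 76.9% (83 of 108; exact 95% interval 67.8 to 84.4) and 72.4% (265 of 366; 67.5 to 76.9) used TRBV13-2 (also as the tables' joint label TRBV12-2+TRBV13-2), TRBV29 or TRBV1. In other TCR cells the shares were 18.5% (16.2 to 21.0) and 21.6% (19.4 to 23.9). These 3 are the V genes known from mouse iNKT cells. All intervals here are exact and cover counting error alone.

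On GRCm38 the 5 Klr genes lie within 900.5 kb of chromosome 6 (128778485 to 129678973), in the NK gene complex. Gzma and Gzmk neighbour each other on chromosome 13, 70.6 kb apart. Nkg7 lies on chromosome 7, Fcer1g on chromosome 1 and Zbtb16 on chromosome 9. RefSeq promoter windows (GRCm38.p6, 250 bases before to 50 after a start) were matched for 8 of the 10 genes, in 9 windows. The windows of Klrk1 and Gzmk are shown as a pair whose genes differed in opposite directions between iNKT TRA and other TCR cells. Capitals mark the letters TGTGGT or ACCACA, the core bound by RUNX factors, and TCACAC or GTGTGA, a core bound by T-box factors, searched on both strands; matches of the 2 motifs do not overlap in the windows shown.
Klrk1, chr6:129623815-129624114, minus strand: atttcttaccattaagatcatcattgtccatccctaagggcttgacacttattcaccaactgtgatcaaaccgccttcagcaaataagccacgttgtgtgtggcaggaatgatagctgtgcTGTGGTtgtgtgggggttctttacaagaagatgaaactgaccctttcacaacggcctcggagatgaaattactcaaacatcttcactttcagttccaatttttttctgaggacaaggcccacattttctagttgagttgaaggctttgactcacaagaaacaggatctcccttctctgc
Gzmk, chr13:113180916-113181215, minus strand: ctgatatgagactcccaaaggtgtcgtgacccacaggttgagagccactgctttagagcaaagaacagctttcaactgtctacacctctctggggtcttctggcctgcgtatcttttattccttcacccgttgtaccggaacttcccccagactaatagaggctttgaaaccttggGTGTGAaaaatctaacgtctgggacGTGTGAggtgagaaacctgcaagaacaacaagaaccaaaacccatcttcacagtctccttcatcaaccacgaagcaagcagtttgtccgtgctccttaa
The RUNX core was found in 7 of the 9 windows and in 16.8% of 32851 windows of all genes. The T-box core was found in 4 of the 9, those of Nkg7 and Gzmk and both overlapping windows of Klre1, and in 14.5% of all windows. These matches describe letters in a window and are not binding sites.

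The first comparison set iNKT TRA cells against other TCR cells of the same replicate. The 5 Klr receptor genes, Zbtb16, Nkg7 and Fcer1g were higher in iNKT TRA cells in both replicates, and Gzmk was lower in both. Gzma also passed as higher, on the UMIs of a few cells. In edgeR's quasi-likelihood test with the replicate as a block, adjusted by Benjamini-Hochberg over 9692 genes, all 10 genes passed the filter on low counts, and 9 were called higher and 1 lower at an adjusted p under 0.05. Over all genes tested, 3.32% were called higher and 3.44% lower. The median log2 fold change was 2.45 over the 10 genes and -0.01 over all genes. Klrc1, Klrb1c, Klre1 and Zbtb16 were so low in other TCR cells of replicate 1 that they could pass the filter only with the iNKT TRA sums. Their test results are a description only, as are the count of 9 and the median of 2.45, which include them. The 10 genes had also been chosen with earlier results of these data known. Without the block the fold changes were similar, but edgeR called 0 of 9692 genes and none of the 10 (477 genes, all 10 among them, had an unadjusted p under 0.05). DESeq2 with the block called 8 of the 10 and 1.9% of 8732 genes, leaving out Fcer1g (adjusted p = 0.25) and Gzma (adjusted p = 0.725).

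**Figure D1:**
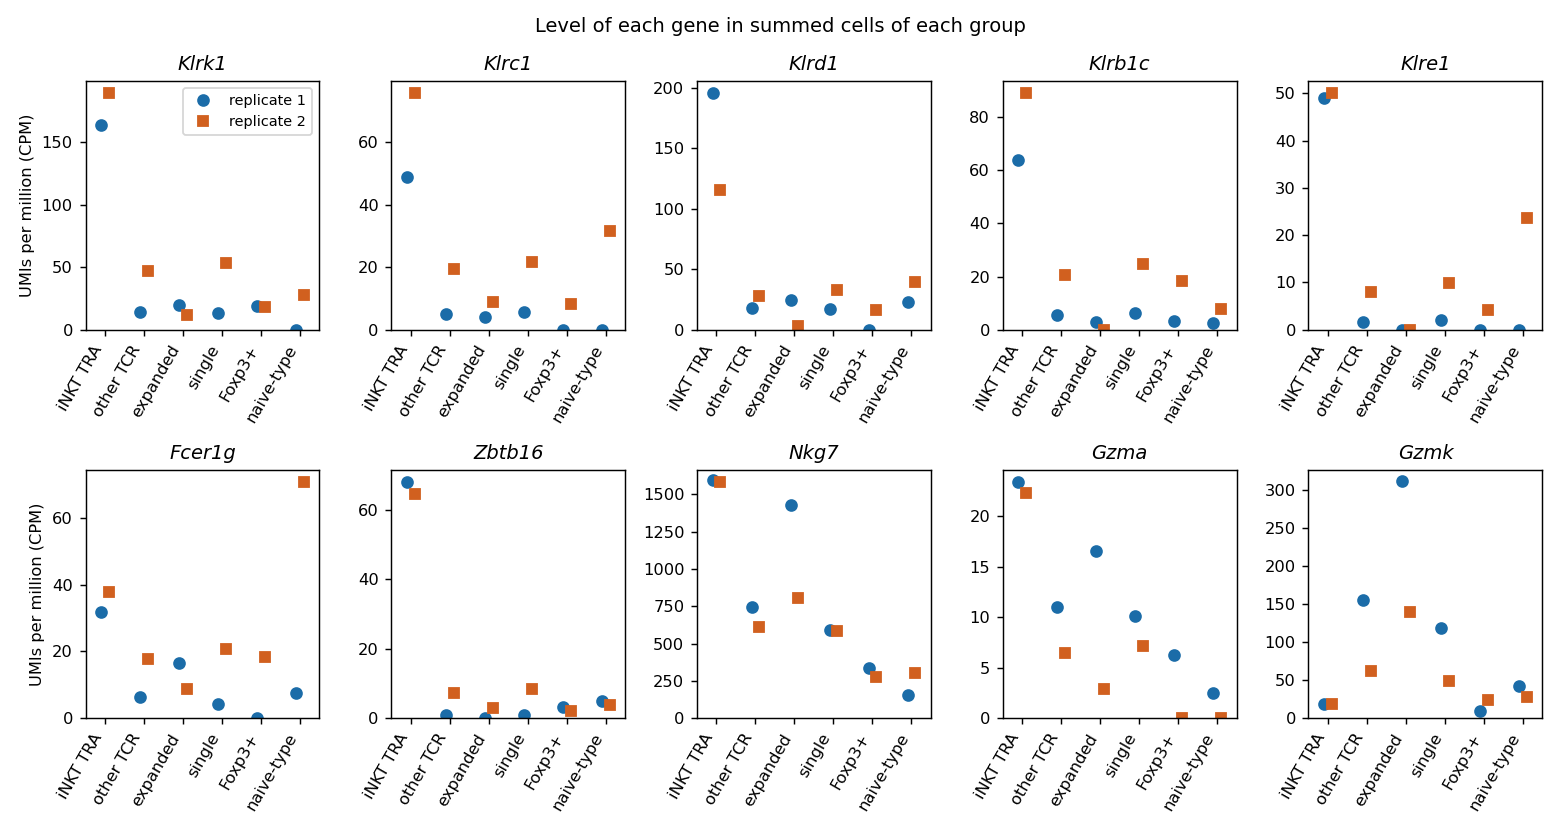
Level of each of the 10 genes (vertical axis, CPM of the summed cells, linear from 0, a scale of its own per gene) in 6 groups of cells; circles are replicate 1 and squares replicate 2. The Klr genes and Zbtb16 are highest in iNKT TRA cells in both replicates, whereas Gzmk is highest in expanded cells, at 311 and 140 CPM. The expanded, single, Foxp3+ and naive-type cells are subsets of the other TCR cells and overlap one another.

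Klrk1 encodes NKG2D, an activating receptor for stress-induced ligands. Its level in iNKT TRA cells was 164 CPM in replicate 1 and 189 CPM in replicate 2, against 13.9 and 47.2 CPM in other TCR cells. The log2 fold change was 2.56 (SE 0.18, edgeR adjusted p = 6.2e-43). The iNKT TRA levels of the replicates were close, while the level in other TCR cells was higher in replicate 2, so that the fold was 11.8 in replicate 1 and 4.01 in replicate 2. Each of the other Klr genes, Zbtb16 and Fcer1g also had a smaller fold in replicate 2. Whether the folds differ between the replicates was not tested.

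Klrd1 (CD94) and Klrc1 (NKG2A) form together an inhibitory receptor for the non-classical MHC molecule Qa-1. For Klrd1 the levels were 196 and 116 CPM in iNKT TRA cells against 17.7 and 28.1 CPM in other TCR cells (log2 fold change 2.71, SE 0.20, edgeR adjusted p = 2.1e-39). For Klrc1 they were 49.0 and 75.8 CPM against 5.10 and 19.4 CPM (log2 fold change 2.35, SE 0.28, edgeR adjusted p = 6.3e-15). Both partners were thus higher in iNKT TRA cells in each replicate. Klrc1 passed the filter only with the iNKT TRA sums, so its test result is a description only.

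Klrb1c, the NK1.1 antigen by which NK and NKT cells of B6 mice are stained, was at 63.9 and 89.1 CPM in iNKT TRA cells and at 5.37 and 20.5 CPM in other TCR cells. Its log2 fold change was 2.58 (SE 0.26, edgeR adjusted p = 1.8e-20). Klre1, another lectin-like receptor of the complex, was at 49.0 and 50.1 CPM against 1.61 and 7.92 CPM. Its log2 fold change of 3.41 (SE 0.37, edgeR adjusted p = 1.7e-17) was the largest of the 5 receptors and rested on 6 and 22 UMIs in other TCR cells. Klrb1c and Klre1 passed the filter only with the iNKT TRA sums, so their test results are a description only.

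Zbtb16 showed the largest log2 fold change of the 10 genes, a description only, since it passed the filter through the iNKT TRA sums. It was at 68.1 and 64.6 CPM in iNKT TRA cells, from 32 and 58 UMIs, and at 1.07 and 7.20 CPM in other TCR cells, from 4 and 20 UMIs. The log2 fold change was 4.05 (SE 0.34, edgeR adjusted p = 1.6e-29). iNKT TRA cells made up 9.48% and 21.2% of the TCR cells and held 88.9% and 74.4% of the Zbtb16 UMIs. For the 5 Klr genes they held between 54.8% (Klrc1, replicate 1) and 79.3% (Klre1, replicate 1).

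Fcer1g encodes the Fc receptor gamma chain, a signalling adaptor of NK and myeloid cells. Its level was 31.9 and 37.9 CPM in iNKT TRA cells against 6.44 and 17.6 CPM in other TCR cells (log2 fold change 1.50, SE 0.33, edgeR adjusted p = 0.00025). UMIs of Fcer1g were found in 5 of 112 and 16 of 390 iNKT TRA cells. Against all other cells of the sample, in place of those with a TCR, its log2 fold change was -0.01 and it was not called. Cells with no TRA contig held Fcer1g at 84.9 and 78.7 CPM. Macrophage and monocyte markers summed over 7 genes to 268 and 323 CPM in iNKT TRA cells and to 254 and 266 CPM in other TCR cells, mostly Cst3. In iNKT TRA cells of replicate 1, C1qa, Cd68, Csf1r and Mrc1 were at 0, and the 6 markers other than Cst3 summed to 8.51 CPM (4 UMIs) against 12.6 CPM in other TCR cells. In replicate 2 all 7 had UMIs, and the same 6 summed to 133 CPM (119 UMIs) against 50.1 CPM (139 UMIs), higher in iNKT TRA cells. The 7 mast cell and basophil markers were at 0 in iNKT TRA cells of both replicates. The part of other cell types in the Fcer1g result was not tested.

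Nkg7, a membrane protein of cytotoxic granules, was the most widely detected. Its level was 1592 and 1583 CPM in iNKT TRA cells against 744 and 613 CPM in other TCR cells (log2 fold change 1.22, SE 0.08, edgeR adjusted p = 5.6e-52). The replicates agreed closely, at folds of 2.14 and 2.58.

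The 2 granzyme genes did not move together. Gzmk was at 19.2 and 18.9 CPM in iNKT TRA cells against 155 and 61.9 CPM in other TCR cells, and fell by 2.32 on the log2 scale (SE 0.24, edgeR adjusted p = 3.5e-19). Gzma was at 23.4 and 22.3 CPM against 11 and 6.48 CPM, with a log2 fold change of 1.41 (SE 0.41, edgeR adjusted p = 0.0106). All 11 Gzma UMIs of the iNKT TRA cells of replicate 1 came from 1 cell, and the 20 of replicate 2 from 5 cells. When the cell with most UMIs of each gene was left out of each sum, an alternative added after seeing the data, the adjusted p was 0.844 for Gzma (log2 fold change 0.63) and 0.0904 for Fcer1g (1.45), and the other 8 genes kept their calls.

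**Figure D2:**
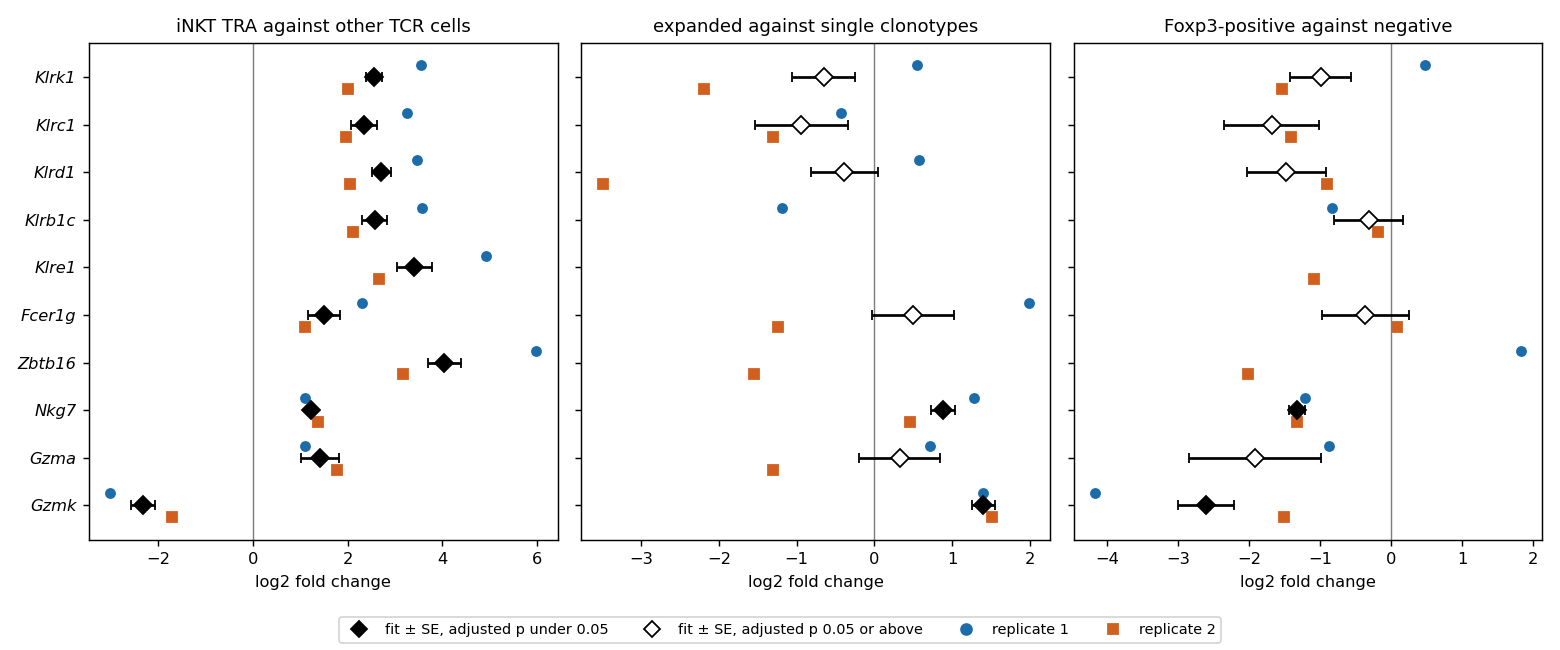
Log2 fold change (horizontal axis) of the 10 genes in the 3 comparisons. Diamonds are the blocked fit ± SE, filled where the adjusted p is under 0.05; circles and squares are the ratios within replicates 1 and 2, left out where a group had 0 UMIs, and no diamond is drawn for genes below the filter on low counts. For iNKT TRA cells both replicates lie on the same side of 0 for each gene, while in the expanded comparison Klrk1, Klrd1, Fcer1g and Gzma lie on opposite sides.

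Shares of cells with a UMI depend on depth, so each cell was also thinned to 1000 UMIs, which left out 2 and 14 iNKT TRA cells and 17 and 119 other TCR cells. Naive-type cells, other TCR cells with UMIs of at least 2 genes from a short list of naive T cell markers, served as a background. They numbered 94 and 110 after thinning, and their medians before it were 3727.5 and 1911 UMIs. After thinning, Klrk1 was found in 11.8% (6.45 to 19.4) and 14.9% (11.5 to 18.9) of iNKT TRA cells, in 0.95% (0.456 to 1.74) and 3.16% (2.28 to 4.24) of other TCR cells, and in 0% (0 to 3.85) and 2.73% (0.566 to 7.76) of naive-type cells. Before thinning the Klrk1 shares of iNKT TRA and other TCR cells were 26.8% and 22.6% against 2.34% and 5.66%. The thinned Klrk1 share of other TCR cells lay within the naive-type interval in both replicates. These intervals rest on few cells, so the shares cannot be called equal. Without thinning, naive-type cells of replicate 1 had 0 Klrk1 UMIs, which allows up to 7.50 CPM, against 13.9 CPM in other TCR cells. In replicate 2 the levels were 27.5 and 47.2 CPM. The background was not free of these genes. Klrd1 was at 22.5 and 39.3 CPM in naive-type cells against 17.7 and 28.1 CPM in other TCR cells. In replicate 2, Klrc1 (31.5 against 19.4 CPM), Klre1 (23.6 against 7.92) and Fcer1g (70.8 against 17.6) were also higher in naive-type cells. Klrk1, Klrb1c, Nkg7, Gzma and Gzmk were lower in naive-type than in other TCR cells of both replicates.

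Klrd1 was found in 15.5% and 9.57% of thinned iNKT TRA cells against 2.13% and 2.73% of naive-type cells. The corresponding shares for Klrb1c were 6.36% and 9.04% against 0% in both, and for Zbtb16 8.18% and 5.85% against 1.06% and 0%. For Klrc1 they were 5.45% and 6.12% against 0% and 1.82%, and for Klre1 4.55% and 4.26% against 0% in both. For Klrc1 and Klre1 the intervals of iNKT TRA and naive-type cells overlapped in both replicates. They also did for Klrd1 in replicate 2 and for Klrb1c and Zbtb16 in replicate 1. Nkg7 was found in 77.3% (68.3 to 84.7) and 76.9% (72.3 to 81.0) of iNKT TRA cells, in 37.6% and 31.0% of other TCR cells and in 11.7% and 15.5% of naive-type cells. Fcer1g, at 1.82% and 2.93% of iNKT TRA cells, was not above the naive-type share of 3.64% in replicate 2. Gzma, at 0.909% and 1.06%, lay within the naive-type intervals of 0 to 3.85 and 0 to 3.3.

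**Figure D3:**
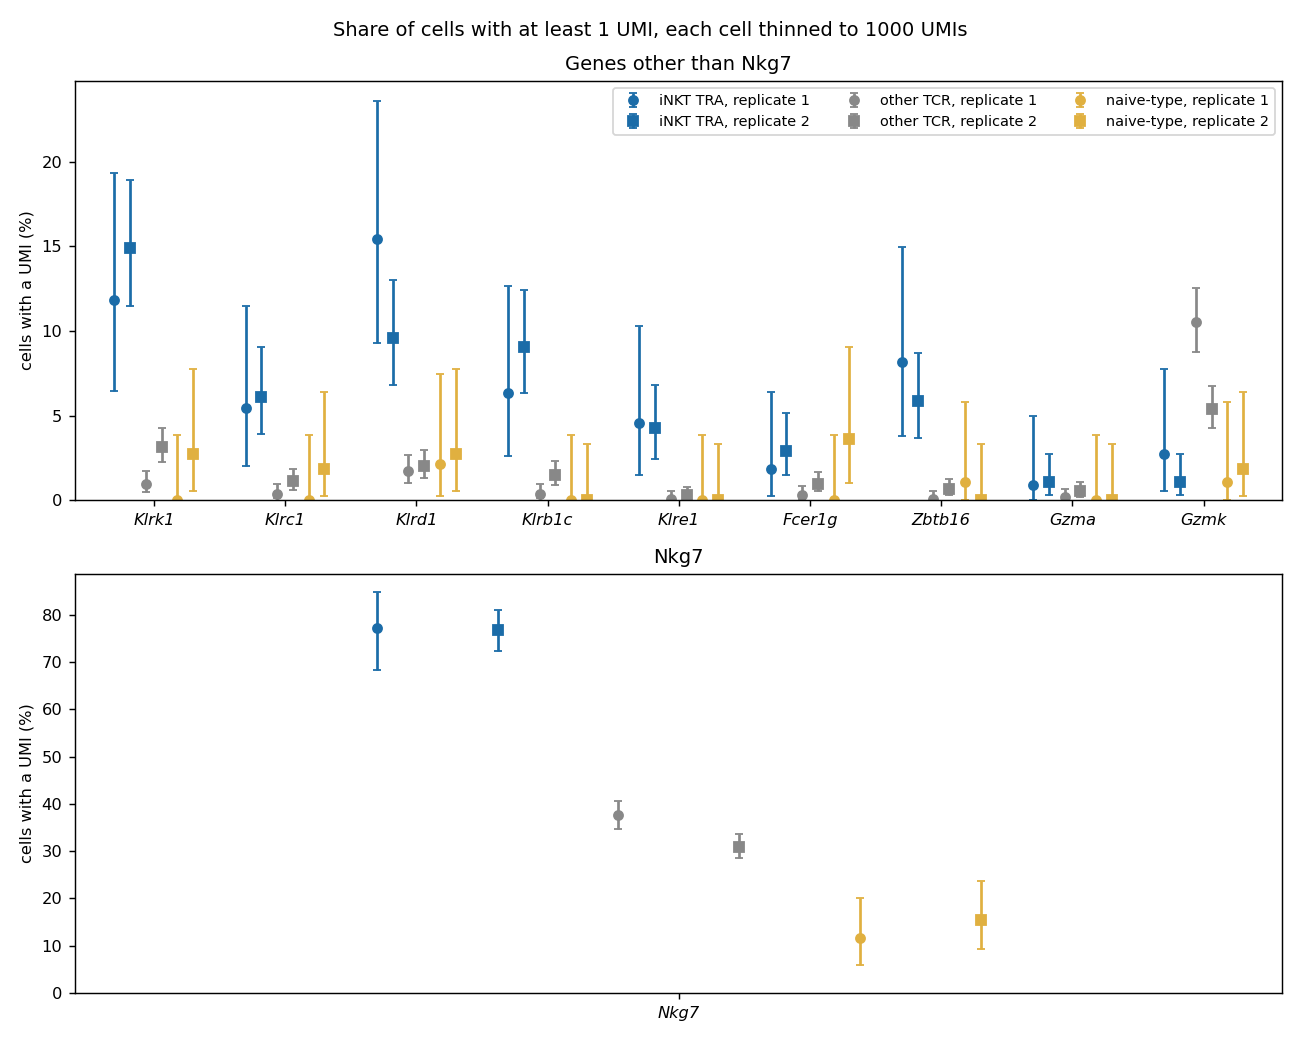
Share of cells with at least 1 UMI (vertical axis, percent) after thinning each cell to 1000 UMIs, with exact 95% intervals; Nkg7 has its own panel because of its range. The 5 Klr genes and Zbtb16 lie above other TCR cells in both replicates. The intervals of iNKT TRA cells (blue) and naive-type cells (yellow) overlap for Fcer1g, Gzma, Klrc1 and Klre1 in both replicates. They also overlap for Klrd1 in replicate 2 and for Klrb1c and Zbtb16 in replicate 1.

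The genes were also counted within single cells. At 1000 UMIs, 15.5% (17 of 110; 9.27 to 23.6) and 14.4% (54 of 376; 11 to 18.3) of iNKT TRA cells held UMIs of at least 2 of the 9 genes other than Nkg7, against 0.57% (0.209 to 1.24) and 2.10% (1.40 to 3.03) of other TCR cells. Detection of Klrd1 went with that of Klrk1 among iNKT TRA cells of at least 1000 UMIs, counted without thinning. Klrd1 was found in 58.6% (38.9 to 76.5) and 41.4% (30.9 to 52.4) of Klrk1-positive cells and in 18.5% (10.8 to 28.7) and 10.4% (7.11 to 14.5) of Klrk1-negative cells. The median depths of these cells were 4249 and 3346 UMIs in replicate 1 and 1946 and 1938 UMIs in replicate 2. Klrc1 was found in 21.9% (9.28 to 40.0) and 19.7% (10.9 to 31.3) of cells with its partner Klrd1 and in 6.41% (2.11 to 14.3) and 7.42% (4.76 to 10.9) of those without. Zbtb16 showed no such relation in these cells: Klrb1c was found in 14.3% and 15.6% of cells with Zbtb16 and in 14.6% and 13.3% of those without, with wide intervals (3.05 to 36.3 and 6.49 to 29.5 with Zbtb16).

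**Figure D4:**
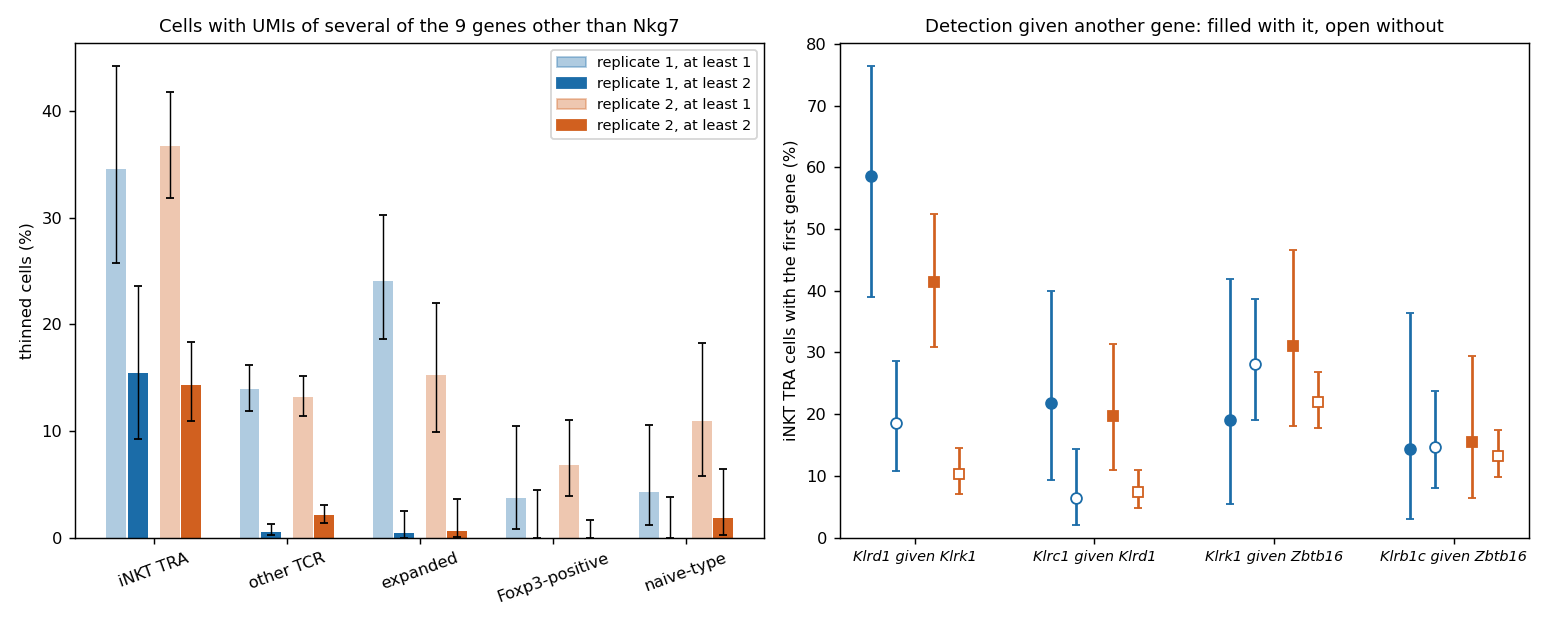
Left, share of thinned cells (percent, bars from 0) with UMIs of at least 1 (pale) or at least 2 (full colour) of the 9 genes other than Nkg7, in 5 groups and 2 replicates (blue and orange). Right, share of iNKT TRA cells of at least 1000 UMIs, not thinned, with the first named gene among cells with (filled) and without (open) the second. Bars and whiskers are exact 95% intervals; at least 2 genes were found in 15.5% and 14.4% of iNKT TRA cells and in at most 2.10% of other TCR cells.

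Related genes were described from lists of receptors, adaptors, granule genes and NKT subset genes. These lists too were chosen with earlier results of these data known, so their counts are a description. Of 23 other NK receptor genes in the table, 10 passed the filter and 7 were called higher in iNKT TRA cells, none lower. Of the 7, Klra1, Klra3 and Klra9 were so low in other TCR cells that they could pass the filter only through the iNKT TRA sums. Their values are a description only. Klra9, an inhibitory receptor of the Ly49 family, was at 83.0 and 20.1 CPM against 1.88 and 5.04 CPM (log2 fold change 3.76, SE 0.41, edgeR adjusted p = 2.1e-17). Klra1 and Klra3 of the same family (log2 fold changes 2.42 and 2.49) and Klrb1f (2.50) were also higher, as were Cd160 (1.75), Slamf7 (1.44) and the adhesion receptor Cd226 (0.89). The Klra genes are near-identical copies, so reads can be shared among them and their single values are uncertain. Of 6 adaptor genes tested none was higher and Cd247, the CD3 zeta chain, was lower (134 and 193 against 369 and 406 CPM; log2 fold change -1.24). Hcst, the adaptor DAP10 through which Klrk1 signals, was at 952 and 652 CPM against 864 and 610 CPM and was not called (log2 fold change 0.10, SE 0.09, edgeR adjusted p = 0.723).

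Among granule and death ligand genes, 5 of 9 tested were called higher in iNKT TRA cells and none lower: Ctsw (log2 fold change 1.46), Fasl (1.20), Gzmb (1.07), Serpinb9 (0.83) and Serpinb6b (0.77, which was not higher in replicate 1, at 23.4 against 25.2 CPM). Prf1, perforin, was at 8.51 and 10.0 CPM against 8.58 and 5.40 CPM and was not called (edgeR adjusted p = 0.828). Of 12 genes of the NKT1 type, the interferon-producing subset, 10 were called higher and 1 lower (Itgb1). They included Tbx21, the T-bet factor (123 and 146 against 75.6 and 72.0 CPM, log2 fold change 0.87), Il2rb (0.95), Cxcr6 (1.46), Xcl1 (1.71), Il12rb2 (2.18), Ifng (0.87), Itga1 (1.47), Txk (1.52) and Fgl2 (1.59). Ccl5 (0.28) was higher in replicate 2 only, at 1631 against 989 CPM, and at 1869 against 2061 CPM in replicate 1. Of the NKT2 type, 2 of 6 tested were higher, Il4 (61.7 and 43.4 against 6.17 and 8.64 CPM, log2 fold change 2.78) and Plac8 (2.42), and 2 lower, Icos (-0.44) and Izumo1r (-0.80). Of the NKT17 type, 0 of 6 tested were higher and 2 lower, Ccr6 (-1.81) and Il18r1 (-1.03). Il17a, the cytokine gene of that subset, had 0 UMIs in iNKT TRA cells of both replicates, which allows up to 6.39 and 3.34 CPM. Other TCR cells were below that, at 2.15 and 0.36 CPM, so Il17a does not tell the groups apart. Of 7 recirculation genes 6 were lower, Ccr7 by the most (log2 fold change -3.10), and of 8 Treg genes 5 were lower. Of these, Ctla4 (-0.61) was lower in replicate 2 only, at 26.7 against 117 CPM, and at 187 against 148 CPM in replicate 1. The median log2 fold change was 1.60 for the other NK receptors, 0.77 for granule genes, 1.20 for NKT1, -0.16 for NKT2 and 0.09 for NKT17 genes, against -0.01 for all genes.

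Markers of other cells were read beside these results. Of 8 NK cell markers, 5 were at 0 in iNKT TRA cells of replicate 1, among them Ncr1 and Eomes, and 2 in replicate 2, where Ncr1 had 1 UMI and Eomes 3. Their sum was 95.8 and 42.3 CPM against 15.3 and 29.9 CPM in other TCR cells, with Klra9 at 39 of the 45 UMIs in replicate 1. Cd8a had 0 and 1 UMI in iNKT TRA cells. The gamma-delta T cell markers Trdc, Sox13 and Cd163l1 summed to 2 and 0 UMIs with Trdc at 0. The listed constant genes of the TCR gamma locus (Tcrg-C1, Tcrg-C2 and Tcrg-C4) were not found under those symbols and are not in this sum. Trgc4, a constant gene of that locus, was higher in iNKT TRA cells, at 55.3 and 69.1 against 1.88 and 7.92 CPM. The part of gamma-delta T cells in this was not tested. The CD4 T cell markers Cd3e, Cd3d and Trac were not called between the groups, but Cd4 was lower in iNKT TRA cells, at 59.6 and 92.5 CPM against 218 and 250 CPM (log2 fold change -1.60, SE 0.15, edgeR adjusted p = 1.8e-23). UMIs of Cd4 were found in 20.5% and 16.2% of iNKT TRA cells and in 49.9% and 35.7% of other TCR cells, although all had been sorted as CD4+.

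Genes outside the 10 were named by the 10 largest fold changes over the 4 sums. They had to be called, in the same direction in both replicates and with at least 20 UMIs in the higher group of each. These were Trgc4, Arl4d, Sulf2, Il4, Ly6c2, Plac8, Ly6g5b, Qpct, Tmem273 and Il12rb2. Trgc4 and Sulf2 passed the filter only with the iNKT TRA sums, so their values are a description only. Trgc4, a constant gene of the TCR gamma locus, was at 55.3 and 69.1 CPM against 1.88 and 7.92 CPM (log2 fold change 3.69). Ly6c2 was at 2007 and 1607 CPM against 206 and 320.5 CPM (2.77). The 5 lowest, Mzb1, Cd79a, Fry, Slpi and Zbtb32, all had 0 UMIs in the iNKT TRA sums. Mzb1, a gene of antibody-secreting cells, was at 27.1 and 52.6 CPM in other TCR cells, at least 4.24-fold and 15.7-fold above the level of 3 UMIs in the iNKT TRA sum. The same bounds were 1.60 and 3.56 for Cd79a, 1.72 and 3.02 for Fry, 0.924 and 3.77 for Slpi, and 1.43 and 3.23 for Zbtb32. In replicate 1, 0 UMIs thus hardly set these genes apart between the groups. B cell markers summed to 14.9 and 2.23 CPM in iNKT TRA cells and to 31.1 and 36.4 CPM in other TCR cells, and their part in these 5 genes was not tested.

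The second comparison asked whether the genes went with clonal expansion outside the iNKT TRA cells. Expanded cells, whose TRB chain occurred in at least 2 cells of the replicate, numbered 223 and 166, and cells with a single occurrence 808 and 1139. Nkg7 and Gzmk were higher in expanded cells in both replicates, and none of the Klr genes was called. Of the 10 genes 7 passed the filter, 2 were called higher and none lower in edgeR with the block, where 0.626% of 9105 genes were called higher and 0.329% lower. Klrb1c, Klre1 and Zbtb16 were below the filter. Neither edgeR without the block nor DESeq2 called any gene in this comparison (138 and 49 genes at an unadjusted p under 0.05).

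Gzmk was at 311 and 140 CPM in expanded cells against 118 and 49.0 CPM in single ones, a fold of 2.63 and 2.85 (log2 fold change 1.40, SE 0.15, edgeR adjusted p = 3e-08). At 1000 UMIs it was found in 20.5% (15.3 to 26.4) and 11.3% (6.70 to 17.4) of expanded cells and in 8.03% (6.24 to 10.1) and 4.81% (3.60 to 6.27) of single cells. Nkg7 was at 1427 and 807.5 CPM against 588 and 585 CPM (log2 fold change 0.88, SE 0.15, edgeR adjusted p = 0.00035), and the fold was larger in replicate 1 (2.43) than in replicate 2 (1.38). Among cells with at least 1000 genes Nkg7 was not called (log2 fold change 0.51, edgeR adjusted p = 0.999).

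None of the 5 receptors was called. All 5 were lower in expanded cells of replicate 2, while Klrk1 and Klrd1 were higher in those of replicate 1. Klrk1 was at 19.4 CPM in expanded and 13.3 CPM in single cells of replicate 1, and at 11.7 and 53.1 CPM in replicate 2 (log2 fold change -0.65, SE 0.41, edgeR adjusted p = 0.796). Klrd1 was at 24.9 against 16.8 CPM and at 2.92 against 32.8 CPM (edgeR adjusted p = 0.952). Klre1 had 0 UMIs in expanded cells of both replicates, which allows up to 4.15 and 8.75 CPM, against 2.10 and 9.89 CPM in single cells. Klrc1 was at 4.15 against 5.59 CPM in replicate 1 and at 8.75 against 21.6 CPM in replicate 2 (log2 fold change -0.94). Klrb1c was at 2.77 against 6.29 CPM in replicate 1, and in replicate 2 had 0 UMIs in expanded cells, which allows up to 8.75 CPM, against 24.7 CPM. Fcer1g (0.50) was not called, and the 7 macrophage and monocyte markers summed to 368 and 149 CPM in expanded cells against 217 and 296 CPM in single ones; their part was not tested. Gzma (0.32) was not called either, but at a hashtag margin of 2 it was called higher (1.53, edgeR adjusted p = 0.0035). Among the lists, Ctsw (0.63) of the granule genes and Ifng, Xcl1, Ccl5, Fgl2 and Cxcr6 of the NKT1 type were higher in expanded cells. Of 6 other NK receptors and 5 adaptors tested none was called, and 5 of 7 recirculation genes were lower, among them Ccr7 (-1.76). The 3 largest changes by the naming rule were Ccl4 (3.56), Iglv1 (2.47) and Ifng (1.86), and the 3 smallest Ly6c1 (-2.37), Sh3bp5 (-2.08) and Dapl1 (-1.93). Iglv1 is an antibody light chain gene. B cell markers summed to 31.8 and 81.6 CPM in expanded cells against 28.6 and 28.3 CPM in single cells, and their part was not tested.

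Sharing of beta chains was also counted among the iNKT TRA cells themselves. In replicate 1, 0 of 108 (0 to 3.36%) shared a TRB chain with another iNKT TRA cell, and in replicate 2, 35 of 366 did (9.56%; 6.75 to 13.0). In other TCR cells the shares were 21.6% (223 of 1031; 19.2 to 24.3) and 12.7% (166 of 1305; 11 to 14.7). The intervals of the groups are apart in replicate 1 and overlap in replicate 2. A shared chain is more likely to be seen where more cells were sampled. The groups differed in size and no draw of equal size was made, so these shares are a description only.

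A further comparison set Foxp3-positive against Foxp3-negative cells, again without iNKT TRA cells. Foxp3 is the factor that defines regulatory T (Treg) cells, and 1 UMI placed a cell among the 83 and 239 positive cells, so that the 987 and 1211 negative cells can include Treg cells without a Foxp3 UMI. Foxp3 itself was at 14.9 and 25.6 CPM in iNKT TRA cells and at 33.8 and 144 CPM in other TCR cells. Nkg7 and Gzmk were lower in Foxp3-positive cells in both replicates, and none of the receptors was called. In edgeR with the block 8 of the 10 genes passed the filter, 2 were called lower and none higher, where 0.569% of 8965 genes were called lower and 1.15% higher. Klre1 and Zbtb16 were below the filter. Without the block edgeR called 0 genes (387 at an unadjusted p under 0.05). DESeq2 called Nkg7 and Gzmk (adjusted p = 1.4e-08 and 0.0398) and 1.83% of 3601 genes, and gave no adjusted p for the other 8.

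Nkg7 was at 338 and 275 CPM in Foxp3-positive cells against 782 and 685 CPM in negative ones (log2 fold change -1.32, SE 0.11, edgeR adjusted p = 0.00046). At 1000 UMIs it was found in 12.3% (6.08 to 21.5) and 15.9% (11.3 to 21.4) of positive cells, close to the 11.7% and 15.5% of naive-type cells, and in 39.7% and 33.9% of negative cells. Gzmk was at 9.40 and 24.6 CPM, from 3 and 12 UMIs, against 168 and 69.9 CPM (log2 fold change -2.61, SE 0.39, edgeR adjusted p = 0.0112). Among thinned cells the Gzmk call was lost (log2 fold change -1.23, edgeR adjusted p = 0.656). Foxp3 status was also read on the thinned counts there, which left 32 and 159 positive cells.

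Klrk1 went in opposite directions, at 18.8 against 13.5 CPM in replicate 1 and at 18.5 against 53.3 CPM in replicate 2 (log2 fold change -0.99, SE 0.43, edgeR adjusted p = 0.378). Klrd1 had 0 UMIs in the positive cells of replicate 1, which allows up to 9.40 CPM, and 16.4 CPM in replicate 2, against 19.4 and 30.6 CPM in negative cells (edgeR adjusted p = 0.295). Klrc1 also had 0 UMIs in replicate 1, and was at 8.21 against 21.8 CPM in replicate 2. At 1000 UMIs, 0 of 81 and 0 of 220 Foxp3-positive cells held UMIs of 2 or more of the 9 genes other than Nkg7 (upper limits 4.45% and 1.66%). With iNKT TRA cells kept in both groups (85 and 260 positive, 1097 and 1580 negative cells), Klrk1 (-1.40, edgeR adjusted p = 0.0198) and Klrd1 (-1.59, edgeR adjusted p = 0.0377) were called lower. Klrd1 was also called with no filter on low counts (-1.55, edgeR adjusted p = 0.0433). When at least 2 Foxp3 UMIs were asked of a positive cell, which left 29 and 94 cells, both genes had 0 UMIs in the positive cells. Both were then called lower (edgeR adjusted p = 0.0007 for Klrk1 and 0.0093 for Klrd1). The level that 0 UMIs allows there, 25.8 CPM, lies above the negative cells of replicate 1, and that of replicate 2, 14.0 CPM, lies below the 53.3 and 30.6 CPM of its negative cells.

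Klrg1, an inhibitory receptor and the only one of 6 other NK receptor genes tested that was called higher in Foxp3-positive cells, was at 113 and 193 CPM against 28.5 and 28.4 CPM (log2 fold change 2.36, SE 0.23, edgeR adjusted p = 0.00093). Lower were Hcst of the adaptors (-0.71), Ctsw (-0.69) and Fasl (-1.66) of the granule genes and Cxcr6 (-2.13), Xcl1 (-2.50), Ifng (-1.77), Tbx21 (-1.32) and Itgb1 (-0.95) of the NKT1 type. Srgn (0.46), a granule proteoglycan, and Fgl2 (1.01) were higher. Of the 7 Treg genes tested besides Foxp3, 6 were called higher, such as Ikzf2 (2.06) and Tnfrsf4 (2.14). Of the NKT17 type none of 5 tested was called, and of the NKT2 type Icos (1.16) and Izumo1r (1.10) were higher. Besides Klrg1, the naming rule gave Tnfrsf9 (2.38) and Ebi3 (2.25) as highest, and Ccl1, Il2 (-3.29) and Jaml (-2.77) as lowest. Ccl1 had 0 UMIs in Foxp3-positive cells against 61.9 and 280.4 CPM, at least 6.59-fold and 45.5-fold lower against a level of 3 UMIs.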

How the data were processed

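The members and gene lists were chosen with earlier results of these data known. Deposited expression values are raw UMI counts of each barcode. Cell Ranger 4.0.0 wrote those of replicate 1 and 6.0.0 those of replicate 2, per the file headers; mm10, Seurat and Cell Ranger 6.1.0 stand in the submitters' processing notes. Deposited hashtag counts and TCR contigs were joined by barcode. The label of replicate 1 names hashtag 7 with a sequence that the table gives to hashtag 10; the name decided. The labels' protocol names a 3' kit and the series design a 5' kit for the T cells.

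Cells needed at least 10 counts of the sample's hashtag and 5 times the next, 500 genes, under 10% mitochondrial UMIs, at least 1 productive TRA contig and at most 1 TRB chain, which also served against doublets; no doublet caller was run. After the hashtag and quality filters 1661 and 3413 cells remained, and 1182 and 1840 had the TCR. Counts were summed per replicate and group and tested with edgeR 4.0.16 in R 4.3.3 (quasi-likelihood, TMM, filterByExpr, Benjamini-Hochberg, adjusted p under 0.05, TCR segment genes left out); DESeq2 1.42.0 was an alternative, and the test was tested on simulated data. The replicate is a block because both groups of a replicate share a library and animals (correlation of deviations across genes 0.74, 0.71 and 0.68 in the iNKT, expanded and Foxp3 comparisons; genes are not independent). Each gene then has 1 residual degree of freedom, and the test leans on the spread pooled over genes, fully so in the iNKT comparison, where the prior degrees of freedom were infinite. Genes beyond the lists were named by size: the 10 highest and 5 lowest for iNKT TRA cells, 3 and 3 otherwise, among genes called, in the same direction in both replicates and with at least 20 UMIs in the higher group of each. Single values of some list genes are not reported here.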

Additional observations from a re-analysis of the deposited data

Results flagged for a closer look

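The hippocampal libraries, sorted as CD45- Thy1- and outside the comparisons above, held UMIs of some of the genes above the 3 UMIs taken as the floor. In the Foxp3-DTR- library (53484704 UMIs over 8220 barcodes, unfiltered), Zbtb16 had 273 UMIs in 250 barcodes, Fcer1g 53 in 14, Nkg7 19 in 3 and Klrk1 4 in 4. In the Foxp3-DTR+ library (35814655 UMIs over 6548 barcodes), Zbtb16 had 183 UMIs in 169 barcodes and Fcer1g 120 in 20. Zbtb16 was at 5.10 and 5.11 CPM, and Fcer1g at 0.991 and 3.35 CPM. Klrc1, Klrb1c, Gzma and Gzmk had 0 UMIs in both libraries. Each condition has 1 library, so no difference between them was tested.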

How the results depend on the processing

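In the iNKT TRA comparison 655 genes were called. The count was 326 among thinned cells, 408 against all other cells of the sample and 166 with DESeq2, and without the replicate block it was 0. In the expanded comparison 87 were called, with 165 at a hashtag margin of 2, 133 at a margin of 20, 43 among cells with at least 1000 genes, 39 among thinned cells, 41 with clonotypes by both chains, 147 with iNKT TRA cells kept, and 0 without the replicate block and with DESeq2. In the Foxp3 comparison 154 were called, with 298 at a margin of 2, 268 with at least 1000 genes, 33 among thinned cells (Foxp3 status read after thinning), 303 with exactly 1 TRA and 1 TRB chain, 318 with at least 2 Foxp3 UMIs, 393 with no filter on low counts, 277 without the richest cell of each gene (added after seeing the data), 66 with DESeq2 and 0 without the replicate block. The causes were not tested. In the iNKT TRA comparison the 5 Klr genes, Nkg7, Zbtb16 and Gzmk kept direction and call in each alternative with a test except the fit without the block. Fcer1g and Gzma lost their calls in 5 and 6 alternatives. In alternatives with a test, the log2 fold changes that changed sign were those of Fcer1g against all other cells (-0.0071), in expanded cells with iNKT TRA cells kept (-0.052) and in Foxp3-positive cells at a margin of 20 (0.11), of Klrd1 in clonotypes of at least 3 (0.15) and of Gzma in expanded cells with DESeq2 (-0.12), none of them called. Leaving out a replicate leaves 1 sum per group and no test: the ratio within the other replicate is given in its place, and it ranged from 2.66 to 4.93 for Klre1 and from 1.10 to 1.37 for Nkg7 in iNKT TRA cells. Such ratios also changed sign against the fit in expanded cells, for Klrk1 (0.55) and Klrd1 (0.57) in replicate 1 and for Fcer1g (-1.24) and Gzma (-1.30) in replicate 2. In Foxp3-positive cells they did so for Klrk1 in replicate 1 (0.48) and Fcer1g in replicate 2 (0.08); none of these genes was called in those fits. With 2 replicates, and genes at a few UMIs per sum, small differences were not detectable at this depth.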

Other observations

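Cells that held UMIs of at least 3 of the 8 genes other than Nkg7 and Gzmk, without thinning, were also counted by their beta chain, whether or not a TRA contig had been read. Among cells with no TRA contig, 11 of 396 in replicate 1 (2.78%; 1.39 to 4.92) and 41 of 1397 in replicate 2 (2.93%; 2.11 to 3.96) were of this kind. Of those with exactly 1 TRB chain, 9 of 9 and 11 of 16 used TRBV13-2, TRBV29 or TRBV1. Among other TCR cells the corresponding numbers were 1 of 5 and 12 of 25. In iNKT TRA cells they were 14 of 17 and 28 of 32. Over all other TCR cells with 1 beta chain the share was 18.5% and 21.6%. Over all cells with no TRA contig it was not counted, so the 9 of 9 and 11 of 16 have no background of their own. What these cells are was not tested.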
